A study of Cicer arietinum with 8 samples.

Results

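The roots of ICC4958 and ICC1882, a drought-tolerant (DT) and a drought-sensitive (DS) genotype of chickpea (Cicer arietinum), were compared after both had been droughted, DT(D) against DS(D). Members of the comparison were the loci with an FPKM (fragments scaled for transcript length and for the size of the library) of at least 1 in DT(D) or DS(D), which were 20310 of the 30978 loci measured. Of these, 16811 carried 1 gene identifier, 544 carried several and 2955 carried none. The larger of both FPKM values was 1.0007 for the locus just inside the minimum and 0.99988 for the locus just outside it.

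The series held 8 root libraries, with 2 per condition: DT(D) and DS(D) from droughted plants, and DT(C) and DS(C) from watered ones. Per the labels, the droughted plants (D) had water withheld for 11 days from an age of 16 days, the control plants (C) were watered on alternate days, and all plants were harvested at 27 days in a growth chamber, although the study's methods give another age and length of stress. Each condition was deposited as 1 pooled FPKM per locus, so none of the differences given here has a replicate check, no test was run, and the reads behind each value are unknown. In bulk roots, fewer cells of a type and less RNA per cell cannot be told apart. The root label was not checked against marker genes, because the identifiers used in the data are paired with gene names only for the genes that the study names. With 1 genotype of each kind, tolerance and genotype cannot be told apart.

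Roots sense drying soil first and respond with altered sugar breakdown, lipid signaling and antioxidant defense. Glycolysis turns sugars into pyruvate and energy, and gluconeogenesis runs part of the route backwards. Glutathione is a small thiol that enzymes use to remove peroxides and to tag toxic compounds, and phosphoinositides are membrane lipids whose cleavage releases inositol phosphates and diacylglycerol as second messengers. The QTL-hotspot is a chromosomal region of chickpea linked to root and drought-tolerance traits. Listed genes of these groups are those that the study named on the same samples, so their direction is not independent evidence.

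Most loci had similar levels in droughted roots of both genotypes. A log2 ratio of DT(D) to DS(D) between -1 and 1 was found for 88.2% of the loci. The log2 ratio was at least 1 in 1367 loci (6.73%), called higher here, and at most -1 in 1033 loci (5.09%), called lower, so that 11.8% of the loci were past the threshold. The quartiles of the log2 ratio were -0.20 and 0.39, around a median of 0.10 over the 20089 loci with a value above 0 in both columns. The scatter of both columns shows them on either side of the diagonal. Among loci above 0 in both columns, 250 were at 2 or above on the log2 scale and 278 at -2 or below, and 36 and 52 were at 4 or above and at -4 or below. A further 123 loci listed at 0 in DS(D) and 98 listed at 0 in DT(D) were counted as higher and lower.

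**Figure D1:**
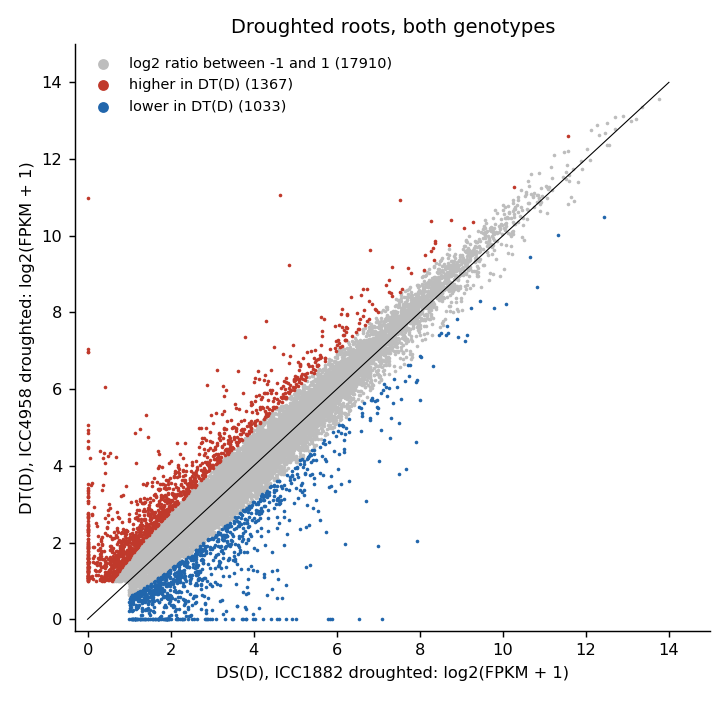
FPKM of 20310 loci in droughted roots of ICC1882 (horizontal axis) and ICC4958 (vertical axis), both as log2(FPKM + 1), with 1 point per locus and the line of equal levels. The 1367 loci higher in DT(D) lie above the line and the 1033 lower loci below it, and points on an axis at 0 are loci listed at 0 in that genotype.

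The balance of higher and lower loci depended on how both columns were scaled. The FPKM values of all loci summed to a larger total in DT(D) than in DS(D). Bringing both sums to 1000000 shifted every log2 ratio by -0.17, and the split of 1367 higher and 1033 lower loci became 1046 and 1338. The share of higher loci among those past the threshold was 57.0% as deposited and 43.9% after that rescaling, and the median log2 ratio turned from 0.10 to -0.07. Values below are as deposited. Rescaling puts any log2 ratio between 0 and 0.17 below 0, and not every gene where it did is named.

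Both the size and the sign of the ratios differed with the level of the loci. When the loci were divided by mean log2(FPKM + 1) into 10 equal groups, 41.9% of the lowest group were past the threshold, at a median of the larger FPKM of 1.72. In the highest group, with a median of 243, 4.73% were. The groups were formed from the same columns as the ratio, after a filter that 1 column alone could pass. Loci at FPKM 1 or more in DT(D) only (663) or in DS(D) only (588) are uneven through that filter. How far this raised the share at low levels was not tested. The median log2 ratio was between 0.03 and 0.09 in the 7 lower groups and was 0.12, 0.17 and 0.23 in the 3 highest. After rescaling to equal sums, the median was below 0 in every group but the 2 highest, where it was 0.0045 and 0.067. In the highest group 67 loci were higher and 29 lower, and 74.7% of all its loci had a ratio above 0.

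**Figure D2:**
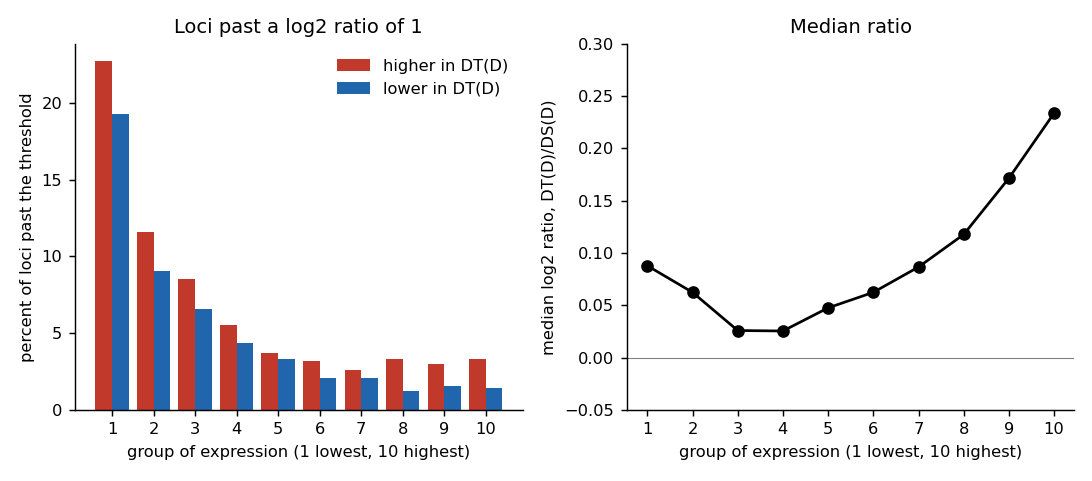
Share of loci past a log2 ratio of 1 (left, bars, percent of the 2031 loci of each group) and median log2 ratio of DT(D) to DS(D) (right, points) over 10 equal groups by mean log2(FPKM + 1). The share past the threshold decreased from 41.9% in the lowest group to 4.73% in the highest, and the median was 0.23 in the highest group.

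The largest differences among loci with 1 identifier that passed a filter on level belonged to genes that the study does not name. Of 10961 loci with FPKM of at least 1 in both columns and of at least 10 in the larger, the 10 with the lowest ratios were between 9.35-fold and 78.6-fold lower in DT(D). The 10 with the highest ratios were between 7.07-fold and 23.9-fold higher. In 7 of the 10 lowest loci, DT(D) was under 1/5 of each of the other 3 conditions, that is, ICC4958 was low under drought alone.

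Ca_02836 had the lowest ratio, with FPKM values of 3.12 in DT(D), 245 in DS(D), 108 in DT(C) and 131 in DS(C). Its log2 ratio was -6.30 in droughted roots and -0.27 in watered roots. Ca_02987 was abundant in the other conditions as well, with 23.7 in DT(D), 241 in DS(D), 291 in DT(C) and 326 in DS(C). Ca_14581 had 13.99, 202, 170 and 308 in these conditions. A pair of loci whose identifiers lie close together behaved alike. Ca_22970 had 7.47 in DT(D), 103 in DS(D), 92.9 in DT(C) and 163 in DS(C). Ca_22974 had 12.8, 179, 151 and 203. In all 5 loci the watered genotypes were within a log2 ratio of 1, and the low value was that of droughted ICC4958.

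Another pattern was a difference that both water regimes shared. Ca_21085 had FPKM values of 2.73 in DT(D), 125 in DS(D), 3.58 in DT(C) and 133 in DS(C), so that ICC1882 was higher in watered and droughted roots alike. Ca_11543 had 1.15, 17.9, 1.00 and 51.2 in the same order. On the other side, Ca_14767 had 603 in DT(D) and 27.6 in DS(D), against 1036 in DT(C) and 58.7 in DS(C). Ca_23848 had 30.4 and 1.40 under drought and 31.6 and 1.33 with water, and Ca_16244 had 89.9 and 7.75 under drought and 104 and 7.50 with water. These loci separated the genotypes by at least 11.6-fold under drought, with watered log2 ratios on the same side and past the threshold. Of the 10 highest loci, 7 were also higher in watered ICC4958, 2 were within the threshold and 1 was lower, and of the 10 lowest loci, 3 were also lower in watered ICC4958 and 7 were within the threshold.

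Values in droughted ICC4958 far above every other condition marked a further set. Ca_24862 had the highest ratio, with 39.3 in DT(D), 1.65 in DS(D), 3.43 in DT(C) and 1.39 in DS(C). Its log2 ratio was 4.58, or 3.93 with a pseudocount of 1. Ca_03918 reached 1947 in DT(D), against 184 in DS(D), 439 in DT(C) and 93.4 in DS(C). Ca_19354 had 786, 111, 113 and 68.2 in the same order, and a second locus with this identifier had 1.19 in DT(D) and was listed at 0 in DS(D). In these 3 loci DT(D) was over 4 times each other condition. Ca_24862 and Ca_03918 were also past the threshold in watered roots, at log2 ratios of 1.31 and 2.23.

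In Ca_22054 and Ca_21000, droughted ICC1882 stood far below watered ICC1882. Ca_22054 had 67.6 in DT(D) and 6.33 in DS(D), beside 210 in DT(C) and 189 in DS(C). Ca_21000 changed sides, with 26.1 in DT(D) and 1.75 in DS(D) under drought and 6.75 in DT(C) and 37.4 in DS(C) with water. Its log2 ratio was 3.90 in droughted and -2.47 in watered roots.

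**Figure D3:**
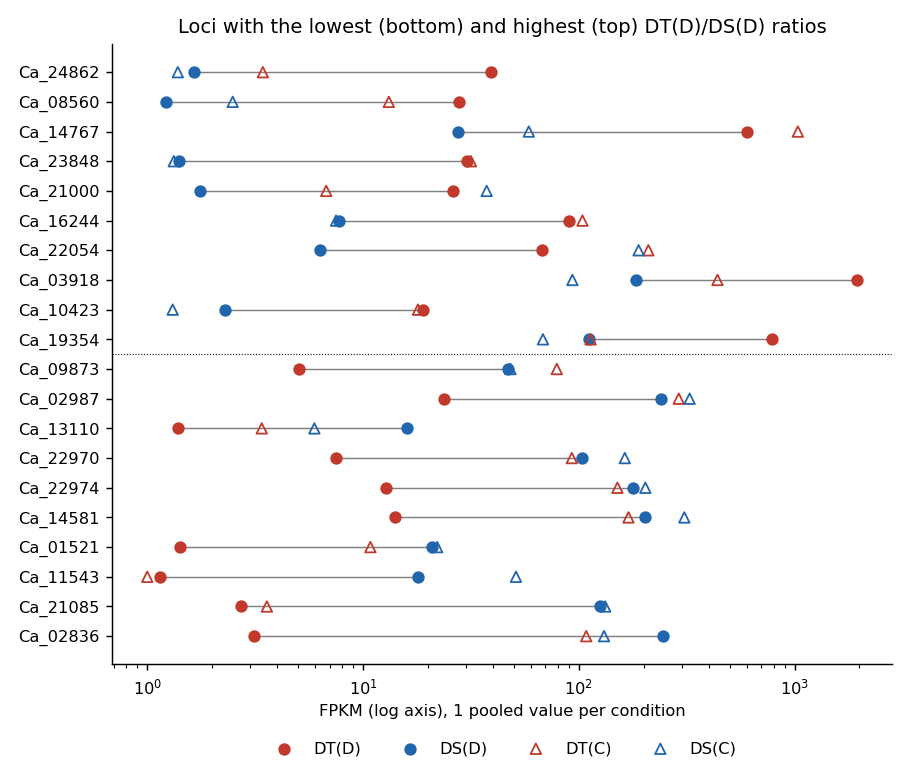
FPKM (log axis) of the 20 loci with the 10 lowest (bottom) and 10 highest (top) DT(D)/DS(D) ratios, with circles for droughted and triangles for watered roots, red for ICC4958 and blue for ICC1882, and 1 pooled value per symbol. In Ca_02836 the circle of DT(D) at 3.12 stands alone, far left of the other 3 values between 108 and 245.

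Among the most abundant loci past the threshold, most differences were smaller, apart from that of Ca_03918 given above. Ca_08236 had the highest level, with 6208 in DT(D), 3037 in DS(D), 4176 in DT(C) and 7120 in DS(C), followed by Ca_22539 with 2457, 1226, 410 and 472. Their log2 ratios of 1.03 and 1.00 were 0.86 and 0.84 after rescaling to equal sums, below the threshold. Ca_13569 (1356 in DT(D) against 429 in DS(D)) and Ca_09800 (1336 and 307) kept log2 ratios of 1.49 and 1.96 after rescaling. On the lower side, Ca_21058 had 1435 in DT(D) and 5536 in DS(D), beside 3796 in DT(C) and 6761 in DS(C). Ca_07447 had 1042 and 2579 under drought and 869 and 2945 with water. Ca_19561, Ca_08456 and Ca_13942 had droughted log2 ratios of -1.22, -1.86 and -1.70. The identifier Ca_19561 has a second locus, which was listed at 0 in every condition but DS(C).

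Some loci were measured in a single genotype. Of the loci at the minimum, 123 were listed at 0 in DS(D), 75 of them also in DS(C), and 98 were listed at 0 in DT(D), 56 of them also in DT(C). A listed 0 can also be a failed estimate: Ca_08775, which encodes the cytosolic glycolytic enzyme glyceraldehyde-3-phosphate dehydrogenase C subunit 1, was listed at 0 in all 4 conditions. Ca_23991 had 124 in DT(D) and 138 in DT(C) and was listed at 0 in both ICC1882 columns. Ca_24767 had 20.5 in DS(D) and 17.0 in DS(C) and was listed at 0 in both ICC4958 columns. Ca_21847 and Ca_10424 had 29.6 and 28.1 in DT(D), were listed at 0 in DS(D), and had watered log2 ratios of 5.93 and 5.03. All 5 of the most abundant single-identifier loci at 0 in DT(D) were also at 0 in DT(C), with DS(D) values from 3.83 to 20.5. One of them, Ca_15840, had a second locus at 21.6 in DT(D) and 21.8 in DS(D).

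Loci without a gene identifier were past the threshold more often than annotated ones. They were higher in 11.7% and lower in 14.7% of cases, against 6.02% and 3.53% of the loci with 1 identifier. Their levels were lower, with a median of the larger FPKM of 7.39 against 17.7. In each of the 10 groups of expression, the share past the threshold was larger in loci without an identifier, 57.3% against 36.6% in the lowest group and 10.8% against 4.50% in the highest. What part these transcripts play is not known from the data.

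Glycolysis and gluconeogenesis genes were slightly higher in droughted ICC4958, but were above 0 about as often as the most abundant loci. Of 44 listed genes, 43 were at the minimum. A ratio above 0 was found for 33 of them (76.7%), against 59.5% of all loci and 74.7% of the highest group of expression. Their median log2 ratio was 0.35, beside 0.10 over all loci and 0.23 in the highest group of expression. The number above 0 was 30 after rescaling to equal sums, where 8840 of all 20310 loci were above 0. It was 29 after centring within groups of expression, which sets the median of each group to 0. The medians of the list were 0.19 and 0.20, respectively. Past the threshold were 2 genes (4.65%), both higher, and none was lower, which is below the share over all loci in each direction.

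Both genes past the threshold act at regulated steps. PEPCK1 (Ca_11524), phosphoenolpyruvate carboxykinase, which makes phosphoenolpyruvate from oxaloacetate at the entry of gluconeogenesis, had FPKM values of 253 in DT(D), 88.7 in DS(D), 107 in DT(C) and 68.5 in DS(C). DT(D) was the highest of the 4 values, and the log2 ratio was 1.51, or 1.35 after rescaling. Since PEPCK1 had the largest ratio in the list, the primers with which the study measured this transcript by RT-qPCR are shown, both in lower case throughout.
PEPCK1 forward: gaggattgtatcagccagagcat
PEPCK1 reverse: gggtgggtcggatacacatg
PFK (Ca_00673), phosphofructokinase, which commits fructose 6-phosphate to glycolysis, had 82.3 in DT(D), 36.9 in DS(D), 71.0 in DT(C) and 70.1 in DS(C). Here droughted ICC1882 was the low value, and the log2 ratio of 1.16 was 0.99 after rescaling. The other 3 phosphofructokinase genes had ratios of 0.49 (PFK4, Ca_08339), -0.16 (Ca_14808) and -0.38 (PFK2, Ca_18157), so the family did not share a direction.

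The remaining gluconeogenic enzymes pointed the same way without reaching the threshold. FBPase (Ca_00102), the fructose bisphosphatase that opposes phosphofructokinase, had 24.97 in DT(D), 13.2 in DS(D), 64.2 in DT(C) and 16.5 in DS(C), with log2 ratios of 0.91 under drought and 1.96 with water. PPDK (Ca_06801), pyruvate orthophosphate dikinase, which returns pyruvate to phosphoenolpyruvate, had 13.3 and 7.47 under drought, in a locus with 2 identifiers.

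All 6 genes of the pyruvate dehydrogenase complex and its acyltransferase family, a complex that feeds pyruvate into the mitochondrial citrate cycle as acetyl-CoA, had a ratio above 0, from 0.28 to 0.86, and all 6 remained above 0 after rescaling. The E1 alpha subunit (Ca_25091) had 177 in DT(D), 97.7 in DS(D), 166 in DT(C) and 163 in DS(C). Lipoamide dehydrogenase 2 (LPD2, Ca_03055) had 229, 132, 170 and 202 in the same order. In both genes DS(D) was the lowest of the 4 values. In watered roots 5 of the 6 genes were also above 0, and all 6 after rescaling, so this direction was not particular to drought. LPD2 was the exception as deposited, at a watered log2 ratio of -0.25. Over all loci 59.5% were above 0 in droughted and 56.0% in watered roots.

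The enzymes of the central steps were the most abundant of the list. Enolase (Ca_00761) had 2214 in DT(D), 1733 in DS(D), 2122 in DT(C) and 2873 in DS(C). Aldolase (Ca_27205), which splits fructose bisphosphate, had 2177, 1513, 1927 and 2876, and triosephosphate isomerase (Ca_02616) had 1732, 1063, 1280 and 1754. In these 3 genes DS(C) was the highest value and DS(D) the lowest. Of 13 genes of the upper steps, 9 were above 0, with a median of 0.22, and of 11 genes of the lower steps, 8 were, with a median of 0.35, and after rescaling 8 and 6 of them were above 0. The lowest ratio of the list was -0.94, that of phosphoglycerate mutase (PGAM, Ca_09253), with 54.8 in DT(D) and 105 in DS(D), in a locus with 2 identifiers. It was -1.11 after rescaling. Pyruvate decarboxylase-2 (PDC2, Ca_00374), the first enzyme of ethanol fermentation, had 159 in DT(D), 108 in DS(D), 178 in DT(C) and 374 in DS(C), with log2 ratios of 0.55 under drought and -1.07 with water.

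In watered roots the same 43 glycolysis genes had a median log2 ratio of -0.19. Of them, 14 (32.6%) were above 0, against 56.0% of all loci. Above 0 in droughted and below 0 in watered roots were 19 genes (44.2%), against 24.7% of all loci. None did the reverse, which 4355 of all 20310 loci did. This contrast depended on scaling: after rescaling to equal sums, 25 of the 43 watered ratios were above 0, with a median of 0.08, and the watered ratios were shifted by 0.27. After centring within groups of expression, 21 of the 43 were above 0, with a median of -0.014. After centring on the median, 10 were, with a median of -0.28. The shares over all loci given here were not matched for level. The difference between the water regimes was not tested. The plot of listed genes shows both sets of ratios side by side.

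**Figure D4:**
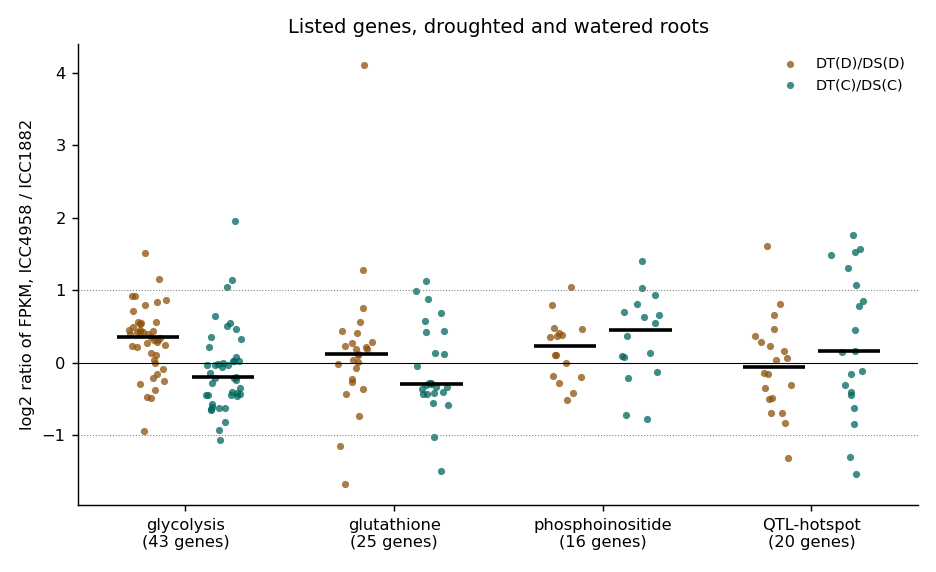
Log2 ratio of ICC4958 to ICC1882 in droughted (brown) and watered (green) roots for the listed genes at the minimum, 1 point per gene, with the median of each set as a black bar and dotted lines at the threshold. The glycolysis median is 0.35 in droughted and -0.19 in watered roots as deposited, and 0.19 and 0.08 after rescaling to equal sums.

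Glutathione metabolism showed no common direction. Of 27 listed genes, 25 were at the minimum, 16 with a ratio above 0 and 12 after rescaling, and the median log2 ratio turned from 0.11 to -0.05. Past the threshold were 2 higher and 2 lower genes, or 8% each way, beside 6.73% and 5.09% of all loci. The 4 genes were all of low or moderate level.

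Both higher genes encode peroxide-removing enzymes, but of the 7 listed peroxidases, peroxiredoxin and dehydroascorbate reductase genes only 4 had a ratio above 0. CysPrx1 (Ca_05125), a cysteine peroxiredoxin that reduces peroxides, had 1.21 in DT(D) but 0.070 in DS(D), 0.190 in DT(C) and 0.0873 in DS(C). Only droughted ICC4958 reached the minimum, and the log2 ratio of 4.11 shrank to 1.04 once a pseudocount of 1 was added. GPX4 (Ca_07849), a glutathione peroxidase, had 7.26 in DT(D), 2.98 in DS(D), 5.21 in DT(C) and 2.62 in DS(C), with log2 ratios of 1.28 under drought and 0.99 with water. The ascorbate peroxidases, which use ascorbate to remove hydrogen peroxide, had ratios below 0, namely -0.43 for APX6 (Ca_01758), -0.26 for the thylakoidal form (Ca_12653) and -0.08 for APX3 (Ca_01955), all within the threshold. The abundant DHAR (Ca_18637), dehydroascorbate reductase, which uses glutathione to regenerate ascorbate, had 1657, 1244, 715 and 1070 in the same order, a droughted log2 ratio of 0.41 that is also within the threshold.

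Both lower genes encode glutathione transferases, which attach glutathione to toxic compounds, but the abundant transferases were close to equal. GST7 (Ca_03442) had 538 in DT(D) and 471 in DS(D), in a locus with 2 identifiers, and GSTU8 (Ca_08326) had 353 and 360. GST (Ca_12001) and GSTU19 (Ca_14389), at log2 ratios of 0.27 and -0.37, were also within the threshold. GSTU7 (Ca_05354) had 7.09 in DT(D), 15.7 in DS(D), 22.9 in DT(C) and 27.9 in DS(C). GSTU20 (Ca_23113) had 0.415, 1.33, 1.60 and 4.49, and its log2 ratio of -1.68 shrank to -0.72 once a pseudocount of 1 was added. GSTU25 (Ca_03087) stayed just below the minimum, with 0.167 in DT(D) and 0.994 in DS(D). Of the 6 transferases at the minimum, 2 had a droughted ratio above 0, and their median was -0.20. In watered roots none of the 6 was above 0, as deposited or after rescaling. GSTU19 was below the minimum there, at 0.280 in DT(C) and 0.574 in DS(C).

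Genes of glutathione synthesis and breakdown and of polyamine synthesis were close to equal or slightly higher in DT(D), with 6 of 6 above 0 as deposited and 4 after rescaling. Glutamate-cysteine ligase (GCL, Ca_05741), the first enzyme of glutathione synthesis, had 86.0 in both droughted genotypes, beside 79.9 in DT(C) and 98.5 in DS(C). GGT4 (Ca_15517), a gamma-glutamyl transpeptidase that starts glutathione breakdown, had 19.4 in DT(D), 11.5 in DS(D), 9.92 in DT(C) and 6.15 in DS(C). Of the 6 genes that supply NADPH, which glutathione reduction consumes, none was past the threshold, and their ratios ran from -0.74 to 0.28. Glutathione-disulfide reductase (Ca_24310) was listed at 0 in all 4 conditions.

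Of 17 listed phosphoinositide genes, 16 were at the minimum, 10 with a ratio above 0 and 8 after rescaling, and the median log2 ratio was 0.23, or 0.06 after rescaling. Past the threshold was 1 gene (6.25%), which was higher, a share close to the 6.73% of all loci. It encodes an inositol monophosphatase (IMPase, Ca_05134), which releases myo-inositol, with 37.9 in DT(D), 18.5 in DS(D), 34.6 in DT(C) and 27.0 in DS(C). Its log2 ratio of 1.04 was 0.87 after rescaling. The more abundant second IMPase gene (Ca_00700) went the other way, with 185 in DT(D), 247 in DS(D), 252 in DT(C) and 415 in DS(C).

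The 7 phosphoinositide kinases, which add phosphates to the lipid head, had droughted ratios between -0.20 and 0.37, with 5 above 0 and 3 after rescaling. In watered roots all 7 were above 0, from 0.13 to 1.40. PI4P5K1 (Ca_04252) had 2.90 in DT(D), 2.70 in DS(D), 4.11 in DT(C) and 1.56 in DS(C). Phospholipases C cleave the lipid to start the signal, and PLC2 (Ca_12484) had 30.4, 43.4, 38.8 and 36.6 in the same order. PI-PLC (Ca_12485) was below the minimum in both droughted genotypes, at 0.471 and 0.879, but had 5.47 in DT(C) and 1.59 in DS(C).

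Of 22 listed QTL-hotspot genes, 20 were at the minimum, with 10 above 0 and 10 below, or 7 above after rescaling, and the median log2 ratio was -0.06. A MYB transcription factor gene (Ca_04621) was higher, with 2.34 in DT(D), 0.770 in DS(D), 1.39 in DT(C) and 1.90 in DS(C). Its log2 ratio of 1.60 shrank to 0.92, below the threshold, once a pseudocount of 1 was added. The PLAT/LH2 lipoxygenase gene (Ca_04606), for oxygenation of fatty acids, was lower, with 16.8 in DT(D), 41.7 in DS(D), 11.5 in DT(C) and 28.4 in DS(C). The lipoxygenase was thus lower in ICC4958 in both water regimes, at log2 ratios of -1.31 and -1.30.

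Some genes of the region that were higher in watered ICC4958 had much lower levels in droughted ICC4958. RLP21 (Ca_04471) changed little in ICC1882, while the others given here fell in ICC1882 as well. DREB (Ca_04504), an AP2-EREBP transcription factor of the family that binds dehydration-responsive promoters, had 17.7 in DT(D) and 10.1 in DS(D), beside 350 in DT(C) and 122 in DS(C). Another AP2-EREBP gene (Ca_04503) and cytochrome P450 family 76 (Ca_04587) were below the minimum in both droughted genotypes, at 0.780 and 0.297 and at 0.640 and 0.0942. Watered levels were 12.7 in DT(C) and 5.41 in DS(C) for Ca_04503, and 3.42 and 0.334 for Ca_04587. The receptor-like protein RLP21 (Ca_04471) had 1.92 in DT(D), 3.43 in DS(D), 12.4 in DT(C) and 3.69 in DS(C). The droughted log2 ratio of -0.84 stood beside a watered ratio of 1.75. In droughted roots 1 of the 20 genes was higher and 1 was lower (5% each way), near the 6.73% and 5.09% of all loci. In watered roots 6 were higher and 2 were lower, where 11.1% and 5.17% of all loci were. The study named several of these genes for their difference in watered roots, so nothing is read from that count or from its contrast with droughted roots.

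Across the whole block of 263 identifiers from Ca_04370 to Ca_04632, 192 of 257 loci were at the minimum. The block runs between the lowest and highest identifiers that the study names in the region. It was not set by genome position, so it need not match the region. Of these, 11 (5.73%) were higher and 4 (2.08%) lower in DT(D), near or below the 6.73% and 5.09% of all loci. Of 197 loci of the block at the minimum in watered roots, 25 (12.7%) were higher and 8 (4.06%) lower, beside 11.1% and 5.17% of all loci. The most abundant locus past the threshold in droughted roots was Ca_04568, named after its values were seen, with 66.1 in DT(D), 173 in DS(D), 91.5 in DT(C) and 112 in DS(C).

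Differences in droughted roots overlapped in part with those in watered roots, DT(C)/DS(C), a comparison that shares no library with DT(D)/DS(D). Of the 1367 higher loci, 1232 were at the minimum in watered roots, and 390 of these (31.7%) were also higher there, against 10.2% of the 19796 loci measured in both comparisons. A further 70 (5.68%) were lower with water, against 4.81% of all. Of the 1033 lower loci, 903 were at the minimum in watered roots, of which 300 (33.2%) were also lower, against 4.81%. Another 132 (14.6%) were higher, against 10.2%. Seen from the watered side, the shared loci were 17.4% of 2244 higher and 28.7% of 1045 lower loci. The shares over all loci were not matched for level. The median of the larger droughted FPKM was 6.07 in higher, 5.52 in lower and 17.8 in the remaining loci. How far level adds to the overlap was not tested. Among loci measured in watered roots, 62.7% of those higher under drought were within the threshold there. For those lower under drought, the share was 52.2%. Both shares were below the 85.0% found over all 19796 loci.

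Over 19563 loci with a ratio in both comparisons, the droughted and watered log2 ratios had a Pearson correlation of 0.25 and a Spearman correlation of 0.11. These are correlations across loci, which are not independent replicates and share the reference genome to which both genotypes were mapped.

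**Figure D5:**
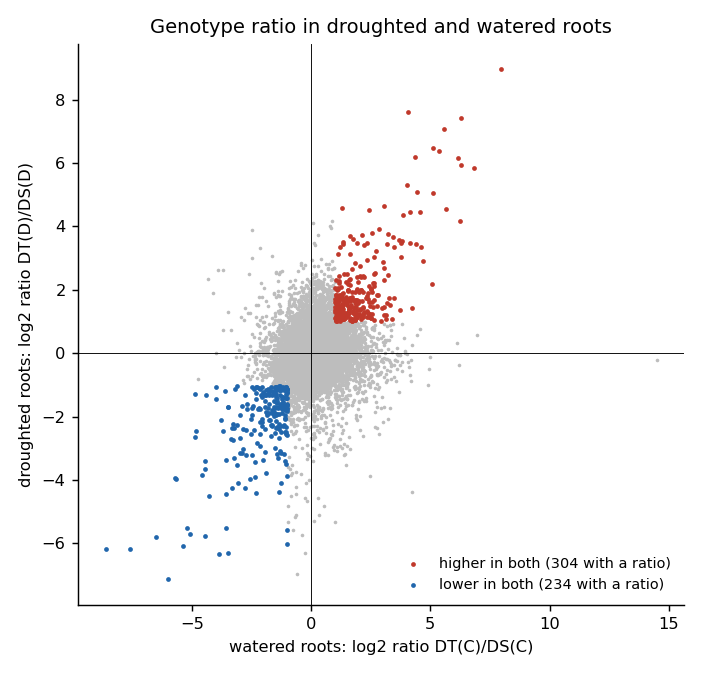
Log2 ratio of ICC4958 to ICC1882 in watered (horizontal axis) and droughted (vertical axis) roots, 1 point per locus with a ratio in both. The loci past the threshold on the same side in both comparisons, 304 higher and 234 lower, form the arms away from the dense center.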

How the data were processed

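Root RNA of 8 libraries was sequenced, and the libraries were grouped by the genotype and treatment in their labels. The authors filtered reads (NGS QC Toolkit v2.3.3), mapped them to the kabuli chickpea genome v1.0 (TopHat2 v2.1.1), assembled transcripts (Cufflinks v2.2.1) and deposited FPKM values, 1 per locus and condition with both libraries pooled. How Cuffdiff normalized the libraries is not given in the sources used here. Mapping to 1 reference genome can affect genotypes differently, which was not tested. Low FPKM values showed no repeated steps from which reads could be recovered: of 920 loci under 0.3 in both columns, at most 4 shared a ratio to 3 decimals. Depth is therefore unknown, and no interval was computed.

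Log2 ratios of DT(D) to DS(D) were computed without a pseudocount (Python 3.11.15, numpy 2.4.6, pandas 2.3.3) for loci with FPKM of at least 1 in either column, with a threshold of 1 in either direction. A locus at 0 in 1 column was counted but given no ratio. The calculation was tested on simulated data. Genes named were the 10 highest and 10 lowest ratios (1 identifier, FPKM of at least 1 in both and 10 in the larger column), the 5 most abundant at 0 in each genotype, the 5 most abundant past the threshold each way, and genes of the 4 lists, some given as counts. The text names some of these and gives the rest as ranges. Names are those of the study, since 0 of 28269 identifiers matched the RefSeq table at hand. The members and lists were chosen with earlier results of these data known. One gene the study names is not reported here. Alternatives were other pseudocounts, filters, thresholds and scalings.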

Additional observations from a re-analysis of the deposited data

How the results depend on the processing

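No paired analysis was possible because each deposited column pools both libraries of a condition, and for the same reason no library could be left out in turn. As deposited, 1367 loci were higher and 1033 lower (57.0% higher), 390 and 300 of them also in watered roots, and 5 genes of the glycolysis, glutathione and phosphoinositide lists were higher and 2 lower. With a pseudocount of 1, 894 loci were higher, 236 and 199 were shared with watered roots, and 1 listed gene was lower. Without a filter, 2459 were higher and 1869 lower, with 814 and 522 shared. With FPKM of at least 1 in both columns, 890 were higher and 603 lower (59.6% higher), with 164 and 126 shared and 1 listed gene lower. With identified loci only, 600 were lower (63.0% higher), with 235 and 144 shared. At a threshold of 1.5, 675 were higher and 589 lower (53.4% higher), with 195 and 157 shared and 2 and 1 listed genes. At a threshold of 2, the counts were 373 and 376 (49.8% higher), 129 and 115, and 1 and 0. With FPKM of at least 10 in the larger column, an alternative chosen after seeing the data, they were 522 and 363 (59.0% higher), 96 and 93, and 3 and 1. The filters and the restriction to identified loci change how many loci enter the comparison, the thresholds how many pass, and a pseudocount shrinks the ratios of low loci most. Scaling changed the balance: the share of higher loci was 49.3% after centring on the median, 50.7% after centring within 10 groups of expression and 43.9% after rescaling to equal sums. The listed genes higher were 3 in both of the latter, and the median log2 ratio in DT(D)/DS(D) turned from 0.10 to -0.069 after rescaling. Some named genes past the threshold were within it under another setting. After rescaling to equal sums these were Ca_08236, Ca_22539, IMPase (Ca_05134) and PFK (Ca_00673). With a pseudocount of 1 they were GSTU20 (Ca_23113), the MYB gene (Ca_04621) and IMPase (Ca_05134). Sign changes say little here, because the shifts were small beside the threshold and a pseudocount cannot turn a sign. The depth behind the values is unknown, so how far it limits the ratios of low loci was not tested.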

Other observations

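Loci with consecutive identifiers were on the same side more often than identifiers in general. Of the higher loci with 1 unique identifier and a measured neighbour in identifier number, 12.4% had a higher neighbour, against 8.61% of all such loci. Of the lower loci, 8.24% had a lower neighbour, against 4.76%. Among 11558 neighbouring pairs, 55 were both higher, 19 were both lower and 39 were opposite. Ranked by the level of the less abundant member, the first pair on the higher side was Ca_19160, with 271 in DT(D) against 68.4 in DS(D), and Ca_19161, with 62.5 against 9.11, while both were within the threshold in watered roots. Ca_10035 and Ca_10036 were higher in both water regimes, at droughted log2 ratios of 1.68 and 1.65 and watered ratios of 1.83 and 2.02. On the lower side, Ca_23897 had 98.9 in DT(D) against 217 in DS(D). Its neighbour Ca_23898 had 9.20 against 61.1. Genome positions of these loci were not used here, and the loci named in this section were chosen after their values were seen.

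A stretch of identifiers was listed above 0 in droughted ICC4958 alone, where a listed 0 can be a failed estimate. The locus with Ca_18460 and Ca_18462 had 2039 in DT(D), the locus with Ca_18458 and Ca_18464 had 125, and Ca_18463 had 32.5, and all 3 were listed at 0 in DS(D), DT(C) and DS(C). Across all loci, 4 were listed at 0 in 3 columns with FPKM above 20 in the fourth, the other one being the second locus of Ca_19561, with 154 in DS(C). Both libraries of DT(D) are pooled in the value, so whether both carried these transcripts was not tested. Of the 8 loci from Ca_22967 to Ca_22974, 5 were listed at 0 in all conditions, and the other 3 were lower in DT(D), at log2 ratios of -3.03, -3.79 and -3.81. Ca_22967, the first of these, was also lower in watered ICC4958, at -2.85. Ca_22970 and Ca_22974 were within the threshold there, at -0.82 and -0.43.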
